A study of Mus musculus with 6 samples.

Results

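The promoters of the replication-dependent histone genes were examined in nephron progenitor cells, the cells of the outer kidney that give rise to the nephrons. A region belonged to the set when the promoter identifier in its annotation carried a gene name beginning with Hist1h, Hist2h, Hist3h or Hist4h. This gave 32 regions under 29 gene names, of 43523 distinct accessible regions in all and 14097 regions annotated as promoters. By cluster, 26 regions lay in Hist1 on chromosome 13, 4 in Hist2 on chromosome 3 and 2 in Hist3 on chromosome 11, and 0 carried a Hist4 name. By the histone type in the name, 6 were H1, 4 H2A, 12 H2B, 3 H3 and 7 H4 regions.

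The cells came from mice of strain CD1 at embryonic stage E14.5 or on the day of birth (P0), with no other treatment or genotype named. Each library was made from 50000 cells of 1 litter, whose kidneys (up to 24) were pooled and enriched with magnetic beads carrying antibodies to Itga8, a surface integrin of these progenitors. There were 3 libraries at each stage, so the p-values measure the spread between pooled litters. Accessibility was read by ATAC-seq: the transposase Tn5 cuts into open DNA, and a region's count rises with how open it is. The comparison asked whether the histone promoters differed in accessibility between the midgestation and the newborn progenitors. In such bulk samples, fewer cells with an open promoter and a less open promoter in each cell cannot be told apart.

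Chromatin packs DNA around a core of the histones H2A, H2B, H3 and H4, and the linker histone H1 binds where the DNA enters and leaves this core. Cells that copy their genome need new histones at once, and most of these come from clustered genes that are switched on in S phase. These genes lack introns, and their messages end in a stem-loop in place of a poly(A) tail. Npat, activated by cyclin E and Cdk2, gathers at the clusters in nuclear bodies and is needed for their transcription, while Slbp binds the stem-loop. Many H2A and H2B genes stand head to head and share 1 stretch of promoter DNA. Nephron progenitors divide throughout kidney development and are used up within days of birth in the mouse.

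The sequences of 5 promoters are shown because they carry the letters by which the histone types differed, and because each belongs to a gene whose values follow. They are the 250 bases before the RefSeq start (build GRCm38.p6), 5′ to 3′ on the strand of the gene. Capitals mark motifs, which were searched on both strands. The TATA box was searched as TATAAA. The CCAAT box, bound by the factor NF-Y, was searched by those letters. The octamer that Pou2f1 binds was written as ATTTGCAT. The H1 box of linker histone promoters was written as AAACACA. An E2F site was written as TTTCCCGC, and a core bound by Hinfp as CGTCCGC. A motif on the other strand appears as its reverse complement, and no 2 motifs overlapped in these stretches.
Hist1h1d: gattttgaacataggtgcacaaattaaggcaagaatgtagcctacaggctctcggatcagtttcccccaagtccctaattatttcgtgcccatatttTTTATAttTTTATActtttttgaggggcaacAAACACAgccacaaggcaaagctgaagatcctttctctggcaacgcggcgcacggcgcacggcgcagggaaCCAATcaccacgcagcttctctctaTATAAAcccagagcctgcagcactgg
Hist1h4k: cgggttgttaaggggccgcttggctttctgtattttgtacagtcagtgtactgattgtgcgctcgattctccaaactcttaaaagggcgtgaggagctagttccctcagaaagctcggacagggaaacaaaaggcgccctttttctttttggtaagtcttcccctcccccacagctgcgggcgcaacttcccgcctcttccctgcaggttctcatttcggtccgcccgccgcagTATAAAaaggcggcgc
Hist2h2bb: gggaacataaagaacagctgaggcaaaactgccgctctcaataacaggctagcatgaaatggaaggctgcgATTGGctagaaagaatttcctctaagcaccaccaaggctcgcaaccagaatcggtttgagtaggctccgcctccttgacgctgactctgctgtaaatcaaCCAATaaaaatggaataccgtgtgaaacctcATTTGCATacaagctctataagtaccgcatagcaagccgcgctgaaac
Hist3h2a: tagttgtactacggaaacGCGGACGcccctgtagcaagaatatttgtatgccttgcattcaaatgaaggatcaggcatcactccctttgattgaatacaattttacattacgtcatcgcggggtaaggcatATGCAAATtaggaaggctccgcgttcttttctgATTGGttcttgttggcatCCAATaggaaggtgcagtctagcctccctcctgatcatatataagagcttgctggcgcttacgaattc
Hist3h2ba: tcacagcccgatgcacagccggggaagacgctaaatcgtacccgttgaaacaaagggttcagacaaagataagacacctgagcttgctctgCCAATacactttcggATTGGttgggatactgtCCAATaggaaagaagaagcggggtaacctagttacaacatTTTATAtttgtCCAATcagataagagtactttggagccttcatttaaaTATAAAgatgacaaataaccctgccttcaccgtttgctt

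The Hist1h1d stretch is chr13:23554782-23555031 on the plus strand and the Hist1h4k stretch is chr13:21750554-21750803 on the minus strand. That of Hist2h2bb is chr3:96269450-96269699, that of Hist3h2a chr11:58954435-58954684 and that of Hist3h2ba chr11:58948661-58948910, all on the plus strand. Each lay inside the accessible region named for its gene, except that the Hist1h1d region began within the stretch. In Hist1h1d, TATAAA began 26 bases, CCAAT 51 bases and the H1 box 122 bases before the start. In Hist1h4k, TATAAA began 16 bases before the start and no CCAAT was present. The Hist2h2bb stretch held an octamer 48 bases before the start and CCAAT on each strand. In Hist3h2a the octamer stood on the other strand, 119 bases before the start, whereas its head-to-tail neighbour Hist3h2ba had no octamer, 4 copies of CCAAT and a TATAAA beginning 39 bases before the start.

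Across the set, RefSeq gave a promoter window (250 bases before to 50 after the start) for 26 of the 29 gene names. CCAAT stood in 80.8% of these windows and in 37.4% of the 32851 windows of all genes. It was present in every H1, H2A, H2B and H3 window of the set, and in 2 of 7 H4 windows. TATAAA stood in 61.5% of the histone windows and in 13.6% of all windows. On the strand of the gene and 20 to 40 bases before the start, it stood in 26.9% of the histone windows, 4 of 5 H1 windows among them, and in 1.99% of all windows. The octamer was found in 19.2% of the set (4 of 8 H2B windows and 1 of 3 H2A windows) and in 1.74% of all windows. The H1 box was found in 4 of 5 H1 windows and in 0 windows of the other types, so in 15.4% of the set, against 7.18% of all windows. Over all 63 RefSeq windows of histone genes it also stood in 2 of 18 H2A and 2 of 17 H2B windows. The Hinfp core stood in 3.85% of the set and 2.75% of all windows, and TTTCCCGC in 0 windows of the set and 1.07% of all. The median GC content was 46.8% in the set and 52.7% over all windows. These are letter matches, not measured binding.

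The motif matches listed in the deposited annotation were counted separately. An E2F match was listed in 15 of the 32 regions (46.9%), against 33.6% of all promoter regions. The 15 regions had a median log2 fold change between stages of 0.01 and the other 17 one of 0.02. A motif of any name was listed in 22 of the 32 regions, or 68.8%, against 69.4% of promoter regions.

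The regions were broad, and many served more than 1 gene. Their median length was 2076 bp (668 to 5783), against 1818 bp over all promoter regions. Of the 32 regions, 17 held the RefSeq start of 1 histone gene, 11 held 2 starts, 3 held 3 and 1 held none. A divergent pair of starts stood in 8 regions. Starts of more than 1 histone type stood in 13 regions, so a region's value often covers the promoters of more than 1 gene. The region named for Hist1h2br, for example, also held the starts of Hist1h2ap and Hist1h4n. In 25 regions the gene that gave the name had its RefSeq start inside. Among the exceptions, Hist1h2al, Hist1h2bc and Hist2h2be had no RefSeq start to place, so their regions could not match. For the same reason, these regions may hold more starts than were counted. Others, chosen here for their mismatch, held the start of another gene. They were a Hist1h2bj region at 22040782 with Hist1h4i, a Hist1h2af region with Hist1h4h and a Hist1h1a region at 23759877 with Hist1h4a. The rule by which the authors assigned reads that match several near-identical histone genes is not given in the sources used here, so values of single genes are uncertain to that extent.

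RefSeq gave starts for 62 genes named Hist1h to Hist4h. Of these, 45 had a start in a region of the set, and 14 started in promoter regions whose identifiers have no name in the deposited table, Hist4h4 among them. The other 3 starts lay in no region analysed here: those of Hist1h1t, Hist1h2aa and Hist1h2ba, which encode histones of the testis.

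Accessibility of the set was moderate to high. Counts per region and library ran from 56 to 1257. Levels are given in CPM, the counts scaled to a common library size by each library's effective total. The median region had 33.3 CPM, against 25.5 CPM over all promoter regions. Per kilobase of region, the median was 17.6 CPM in the set, 12.8 CPM in promoter regions and 8.89 CPM over all regions. The highest mean level in Hist1 was 77.2 CPM, in the Hist1h2br region, and the lowest 11.9 CPM, in the Hist1h2al region that lies apart from the rest of the cluster.

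No histone promoter region differed between the stages by the test. With edgeR's quasi-likelihood test, 0 of 32 regions passed an adjusted p of 0.05 in either direction, where 4.73% of all regions and 0.851% of promoter regions passed. At an unadjusted p under 0.05, 0 of 32 were found, against 18.7% of all regions and 8.73% of promoter regions. DESeq2 also called 0 of 32, and 0 at an unadjusted p under 0.05, against 1.57% and 8.68% of promoter regions. Limma-voom did so too, against 0.745% and 8.75%. With edgeR fitted and scaled on promoter regions alone, 0 of 32 passed by adjusted p, and 2 of 32 had an unadjusted p under 0.05, against 11.6% of promoter regions. They were Hist1h1a (the region at 23763320) with a log2 fold change of 0.47 and Hist1h4k with 0.44, and their adjusted p-values were 0.382 and 0.429. In 0 of 32 regions did all P0 libraries lie on 1 side of all E14.5 libraries, whereas this held for 24.2% of all regions and 16.7% of promoter regions. The count of 0 by adjusted p is near the promoter background, since 0.851% of 32 regions is less than 1 region.

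The fitted differences were small and went both ways. The log2 fold change of P0 over E14.5 ran from -0.35 to 0.39, with 19 regions above 0 and 13 below. Its median was 0.02 in the set, 0.01 over all regions and -0.10 over promoter regions, of which 34.0% were above 0. The 95% intervals of the 32 regions all lay between -0.81 and 0.91, so a difference of that size or smaller may have gone undetected in single regions. The smallest adjusted p was 0.384 with edgeR.

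**Figure D1:**
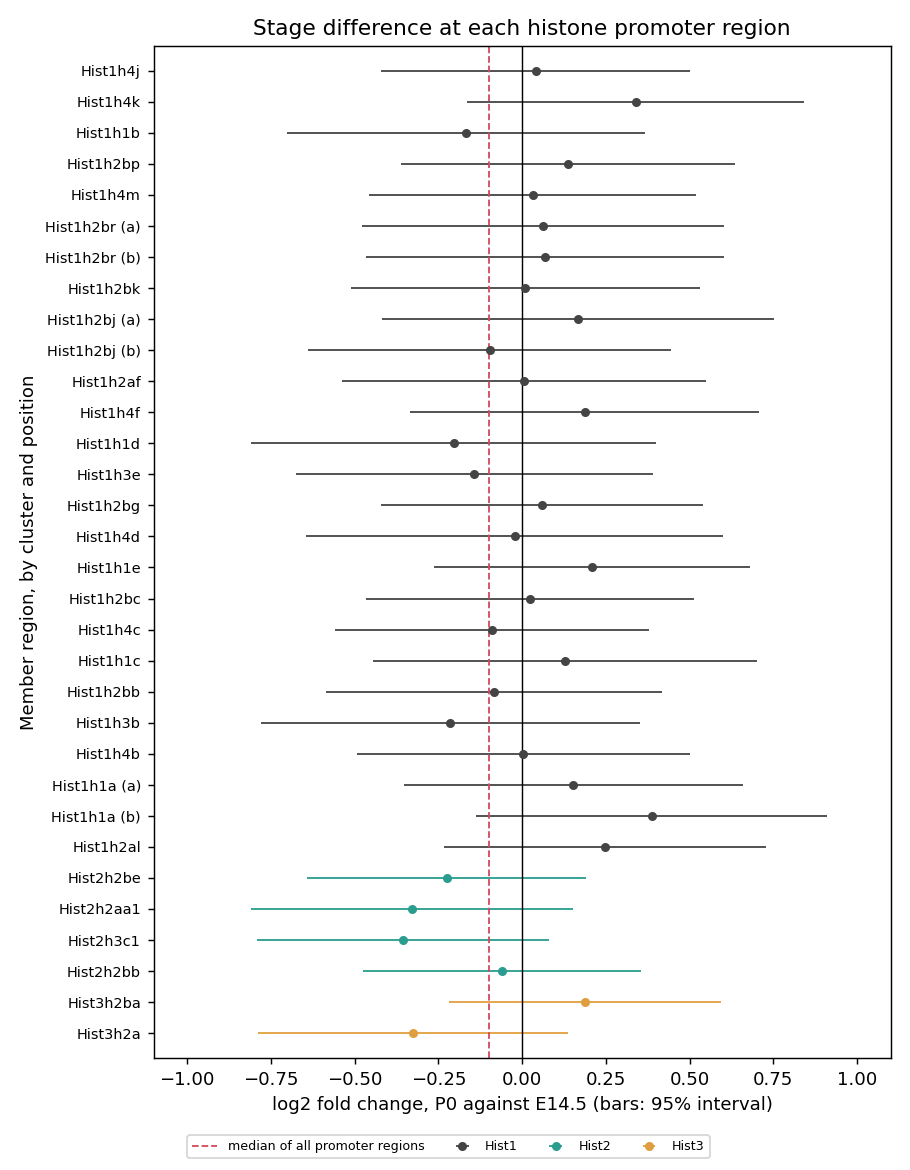
Log2 fold change of P0 over E14.5 for each of the 32 histone promoter regions (points) with its 95% interval (bars), coloured by cluster and ordered by position. The letters a and b tell apart regions of 1 gene name, and the dashed line is the median of all promoter regions, -0.10. Every interval includes 0, and the 4 Hist2 points lie below it.

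Hist1 holds most replication-dependent histone genes of the mouse. Its 26 regions had a median log2 fold change of 0.04, with 18 above 0 and 8 below. They formed 4 stretches of chromosome 13. The medians were 0.06 in 7 regions between 21733283 and 21834900, 0.01 in 3 regions between 22034842 and 22044558, and 0.01 in 15 regions between 23530305 and 23764624. The lone Hist1h2al region, from 51202040 to 51203313, had 0.25.

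The most accessible Hist1 region was that of Hist1h2br (ENSMUSG00000069303), a region from 21831301 to 21834900 with starts of H2A, H2B and H4 genes. It had 79.7, 63.5 and 83.8 CPM in the E14.5 libraries, numbered 1 to 3 in this order here and below, and 89.0, 48.1 and 99.2 CPM in the P0 libraries. The P0 libraries lay on both sides of the E14.5 libraries, P0 replicate 2 below all and the other two above all. The log2 fold change was 0.06 (SE 0.25, n = 3 per stage, edgeR adjusted p = 0.932). A shorter listed region, from 21831419 to 21834900, overlaps it and gave 0.07.

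Among the H1 regions, the highest log2 fold change was at Hist1h1a (ENSMUSG00000049539), from 23763320 to 23764624, the promoter of a linker histone. It had 13.9, 13.0 and 14.1 CPM at E14.5 and 19.6, 11.2 and 22.3 CPM at P0. P0 replicates 1 and 3 were above all E14.5 libraries and P0 replicate 2 was below them. The log2 fold change of 0.39 (SE 0.25, 95% interval -0.14 to 0.91, n = 3 per stage) was the highest of the set, with an edgeR adjusted p of 0.435. The lowest H1 value was at Hist1h1d (ENSMUSG00000052565), from 23554914 to 23556622, whose TATA box and H1 box are shown above. It had 33.2, 28.4 and 44.5 CPM at E14.5 and 34.9, 15.9 and 40.3 CPM at P0, with P0 replicate 2 far below the other libraries. Its log2 fold change was -0.20 (SE 0.28, n = 3 per stage, edgeR adjusted p = 0.763). The 6 regions named for H1 had a median of 0.14, with 4 above 0, but the 4 regions whose starts were all H1 had a median of -0.02, with 2 above 0.

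H4, the core histone whose protein is nearly the same from all of its genes, was represented by 7 regions with a median log2 fold change of 0.03. The highest was Hist1h4k (ENSMUSG00000064288), from 21750038 to 21750914, with 12.5, 10.1 and 14.4 CPM at E14.5 and 17.1, 11.7 and 17.5 CPM at P0. Here too P0 replicates 1 and 3 lay above every E14.5 library, while P0 replicate 2 lay among them. This gave a log2 fold change of 0.34 (SE 0.24, n = 3 per stage, edgeR adjusted p = 0.486). At the low end stood Hist1h4c (ENSMUSG00000060678), from 23697328 to 23699009, with 20.4, 18.0 and 23.6 CPM at E14.5 and 16.9, 15.9 and 24.9 CPM at P0. Its groups overlapped, and its log2 fold change was -0.09 (SE 0.22, n = 3 per stage, edgeR adjusted p = 0.876). Of the regions whose starts were all H4, 9 in number, the median was 0.04.

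H2A and H2B form the dimers that flank the H3 and H4 core. The 12 regions named for H2B had a median of 0.04, with 8 above 0, and the 4 named for H2A one of -0.16, with 2 above 0. Both overlapping Hist1h2br regions were among the 8, as was the Hist1h2bj region at 22040782, which held only an H4 start. The 4 regions whose starts were those of H2A and H2B genes alone had a median of 0.03. The 3 whose starts were all H2A had one of -0.23. Those 3 included the regions named for Hist1h2bc and Hist2h2be, H2B genes whose own starts RefSeq did not give. They may thus hold H2B starts that were not counted. The H2A names cover little of the H2A promoters, since most H2A starts in the set lay in regions named for other types. Of the regions named for H2A, the highest was Hist1h2al (ENSMUSG00000091383), which held no RefSeq start, with 11.2, 9.55 and 12.0 CPM at E14.5 and 11.9, 12.0 and 14.8 CPM at P0. Its groups overlapped, and the log2 fold change was 0.25 (SE 0.23, n = 3 per stage, edgeR adjusted p = 0.613).

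**Figure D2:**
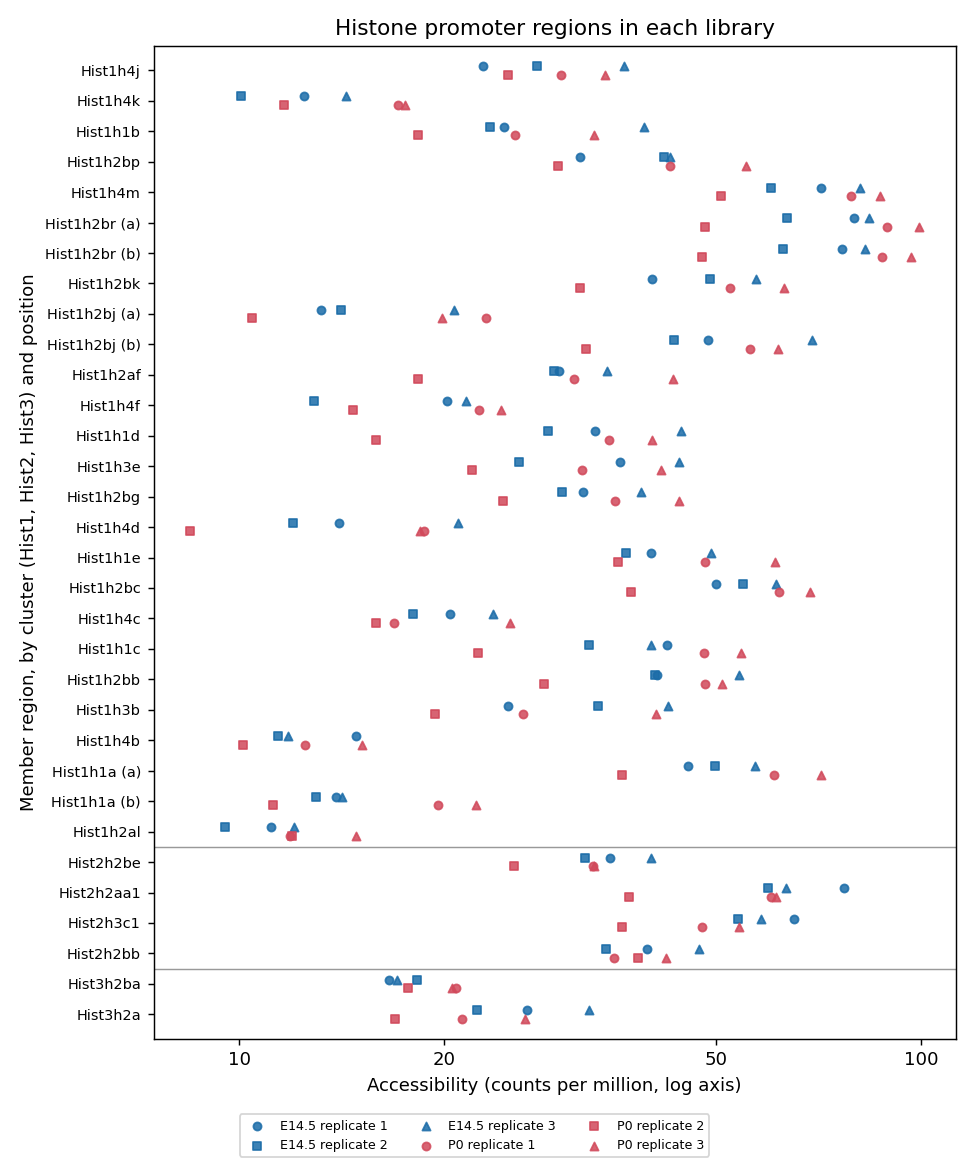
Accessibility in CPM (log axis) of the 32 histone promoter regions in each library, blue for E14.5 and red for P0, with circles, squares and triangles for replicates 1, 2 and 3. The letters a and b tell apart regions of 1 gene name. The red squares, P0 replicate 2, are the lowest point in 26 of 32 regions.

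None of the 4 Hist2 regions passed the test. Over all promoter regions, 9300 of 14097 log2 fold changes were below 0, with a median of -0.10. All 4 Hist2 log2 fold changes were below 0, with a median of -0.28. That of Hist2h2bb, the nearest to 0, turned to 0.00 with total-count scaling, 0.05 with scaling on promoter regions or with promoter regions alone, and 0.06 without E14.5 replicate 3. The lowest was the region of Hist2h3c1 (ENSMUSG00000093769), from 96245094 to 96247402, which holds the starts of an H3 gene and the H2A gene Hist2h2aa1. It had 65.1, 53.8 and 58.3 CPM at E14.5 and 47.7, 36.5 and 54.0 CPM at P0. Only P0 replicate 3 reached into the E14.5 range, just above E14.5 replicate 2. At -0.35, the log2 fold change was the lowest of the set (SE 0.20, 95% interval -0.79 to 0.08, n = 3 per stage, edgeR adjusted p = 0.384).

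Its neighbour from 96238379 to 96240906, named for Hist2h2aa1 (ENSMUSG00000063954), holds the starts of the duplicate copies Hist2h2aa2 and Hist2h3c2. It had 77.1, 59.6 and 63.4 CPM at E14.5 and 60.3, 37.2 and 61.3 CPM at P0, with P0 replicates 1 and 3 just above the lowest E14.5 library. The log2 fold change was -0.33 (SE 0.23, n = 3 per stage, edgeR adjusted p = 0.478). Hist2h2be (ENSMUSG00000068854), an H2B gene, named the region from 96219134 to 96221887, whose RefSeq starts are those of the H2A genes Hist2h2ab and Hist2h2ac. It had 35.0, 32.1 and 40.2 CPM at E14.5 and 33.0, 25.3 and 33.2 CPM at P0. The groups overlapped, and the log2 fold change was -0.23 (SE 0.19, n = 3 per stage, edgeR adjusted p = 0.592). Hist2h2bb (ENSMUSG00000050936), whose octamer is shown above, named the longest region, from 96268026 to 96273808. It had 39.6, 34.5 and 47.2 CPM at E14.5 and 35.4, 38.4 and 42.3 CPM at P0, and every P0 value lay inside the E14.5 range. Its log2 fold change was -0.06 (SE 0.19, n = 3 per stage, edgeR adjusted p = 0.911).

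The Hist3 neighbours had values of opposite sign. Hist3h2a (ENSMUSG00000078851), the H2A gene of the pair, had 26.5, 22.3 and 32.6 CPM at E14.5 and 21.2, 16.9 and 26.2 CPM at P0 in the region from 58953672 to 58955731. P0 replicates 1 and 2 lay below all E14.5 libraries, and P0 replicate 3 lay among them. Its log2 fold change was -0.33 (SE 0.22, n = 3 per stage, edgeR adjusted p = 0.462). Hist3h2ba (ENSMUSG00000056895), the H2B gene, had 16.6, 18.2 and 17.0 CPM at E14.5 and 20.8, 17.7 and 20.5 CPM at P0 in the region from 58948188 to 58950090. P0 replicates 1 and 3 were above all E14.5 libraries, and P0 replicate 2 lay just below E14.5 replicate 2. The log2 fold change was 0.19 (SE 0.19, n = 3 per stage, edgeR adjusted p = 0.656). The difference between the neighbours was not tested.

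The regions named for H3, 3 in number, had a median log2 fold change of -0.21. All were below 0, as were 9300 of 14097 promoter regions. Single libraries bore on this: leaving out E14.5 replicate 3 gave Hist1h3e 0.05 and the median -0.01, and leaving out P0 replicate 2 gave 0.06 and -0.00. Besides Hist2h3c1 they were the Hist1 regions of Hist1h3b and Hist1h3e, named here after their values were seen. Hist1h3b, from 23750936 to 23753067, had 24.8, 33.6 and 42.5 CPM at E14.5 and 26.0, 19.4 and 40.9 CPM at P0. Hist1h3e, from 23561121 to 23563885, had 36.2, 25.7 and 44.1 CPM at E14.5 and 31.9, 21.9 and 41.5 CPM at P0. Both overlapped between the stages, with log2 fold changes of -0.21 (SE 0.27) and -0.14 (SE 0.25) and edgeR adjusted p-values of 0.728 and 0.822 (n = 3 per stage).

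Summed over regions, the stages overlapped in every cluster. Hist1 summed to 890, 833 and 1098 CPM at E14.5 and to 1030, 638 and 1204 CPM at P0, so the P0 libraries spanned the whole E14.5 range. These sums count the reads of the overlapping Hist1h2br regions more than once. Without the shorter region, Hist1 summed to 813, 771 and 1015 CPM at E14.5 and to 942, 590 and 1107 CPM at P0. Hist2 summed to 217, 180 and 209 CPM at E14.5 (mean 202 ± 19.4, SD, n = 3) and to 176, 137 and 191 CPM at P0 (mean 168 ± 27.6, SD, n = 3). P0 replicate 3 again overlapped the E14.5 libraries. Hist3 summed to 43.1, 40.6 and 49.6 CPM at E14.5 and to 42.1, 34.7 and 46.7 CPM at P0, with overlap. The whole set came to 1187 ± 155 CPM at E14.5 and 1166 ± 324 CPM at P0 (SD, n = 3 each).

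**Figure D3:**
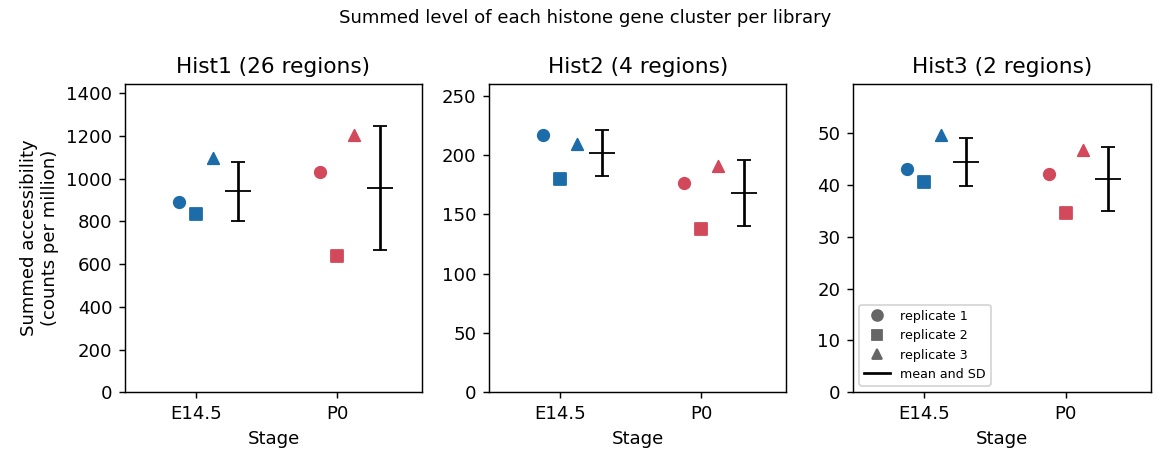
Summed accessibility (CPM, axis from 0) of the Hist1, Hist2 and Hist3 regions in each library by stage, with circles, squares and triangles for replicates 1, 2 and 3 and black bars for the mean and SD. P0 replicate 2 is the lowest library in each cluster, at 638, 137 and 34.7 CPM.

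Ratios of counts within a library do not depend on how libraries are scaled. They were taken without the shorter Hist1h2br region, so that its reads count once. Hist2 over Hist1 was 0.267, 0.234 and 0.206 at E14.5 and 0.187, 0.233 and 0.172 at P0, and the stages overlapped, as they did for Hist3 over Hist1. The counts of the regions named for H3 over those of the regions named for H2B were 0.295, 0.268 and 0.272 at E14.5 and 0.212, 0.241 and 0.244 at P0, so every P0 library was lower. The same held for the regions named for H2A over those named for H2B, with 0.337, 0.285 and 0.268 at E14.5 and 0.250, 0.261 and 0.260 at P0, while the H1 and H4 ratios to H2B overlapped. Within Hist1 alone the H3 ratio was 0.181, 0.176 and 0.203 at E14.5 and 0.142, 0.171 and 0.178 at P0, where P0 replicate 3 lay above E14.5 replicate 2 and the stages overlapped. Many of these regions also hold starts of other types, and the H3 and H2A ratios were singled out after their values were seen, so they are given as descriptions. Within Hist1 alone the H2A ratio was 0.121, 0.114 and 0.109 at E14.5 and 0.105, 0.125 and 0.125 at P0, where the stages overlapped. The Hist1 regions named for H2A held no RefSeq start of an H2A gene.

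The P0 litters spread widely at the histone promoters, which is given as a description with no test. P0 replicate 2 was the lowest library in 26 of 32 regions, against 49.4% of promoter regions and 23.8% of all regions. It was also the lowest in most promoter regions of the replication machinery list described below. P0 replicate 3 was the highest in 17 of 32 (53.1%), against 27.1% of promoter regions and 15.6% of all regions. The median ratio of the highest to the lowest P0 library was 1.82 in the set and 1.40 over promoter regions, and at E14.5 it was 1.33 and 1.27. Relative to each region's mean log2 CPM, the set's median deviation was -0.06, -0.16 and 0.21 at E14.5 and 0.13, -0.51 and 0.33 at P0. Over promoter regions the same values were 0.08, 0.00, 0.10, -0.05, -0.21 and 0.11. P0 replicate 2 also had the fewest counts in regions (6492996) and P0 replicate 3 the most (12292629), and the part of depth in this spread was not tested. In CPM taken over promoter counts alone, the set summed to 1747, 1933 and 2163 at E14.5 and 2250, 1543 and 2514 at P0, so the same P0 libraries stood lowest and highest on that scale.

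**Figure D4:**
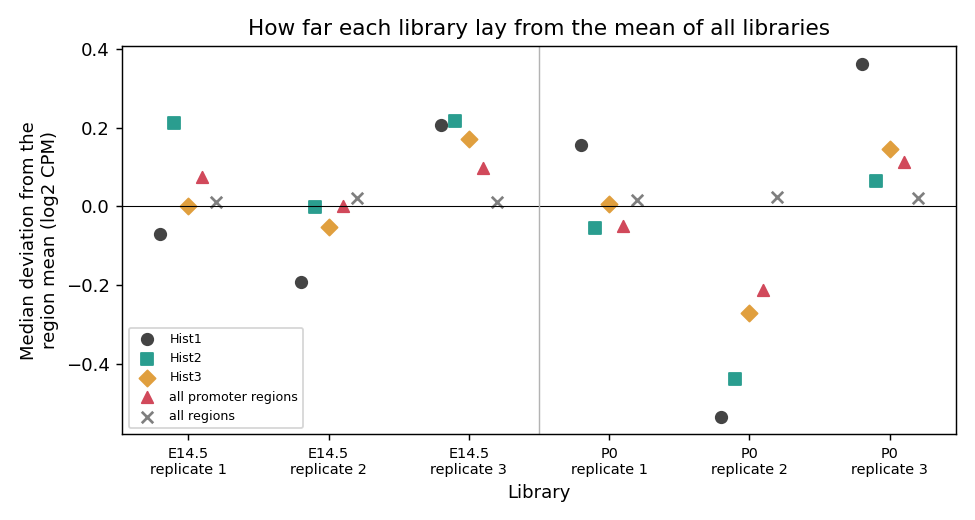
Median deviation of each library from the region mean, in log2 CPM, for the Hist1, Hist2 and Hist3 regions, all promoter regions and all regions. All 3 clusters lie lowest in P0 replicate 2, where the median is -0.51 over the whole set and -0.21 over promoter regions.

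Leaving out P0 replicate 2 moved the set's median log2 fold change to 0.24, with 26 of 32 regions above 0, and leaving out P0 replicate 3 moved it to -0.16, with 6 of 32 above 0. The median over promoter regions was -0.03 and -0.21 in the same fits. In neither case did a region pass edgeR's adjusted threshold. An unadjusted p under 0.05 was found for 3 of 32 regions in each, against 7.79% of promoter regions without P0 replicate 2 and 17.0% without P0 replicate 3. Without P0 replicate 2, both remaining P0 libraries lay above all E14.5 libraries in 9 of 32 regions (28.1%), against 12.6% of promoter regions, and below them in 0 of 32. Over both directions, the stages did not overlap in 27.8% of promoter regions and 34.3% of all regions. Of all 43523 regions, 7548 had both P0 libraries above. This count was taken only without P0 replicate 2, picked because it was lowest in most of the set. That choice favours P0 values above E14.5, and the same count without P0 replicate 3 was not taken.

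The regions that hold a histone start but carry no histone name were examined in the same fit. These 13 regions had a median log2 fold change of -0.09, with 3 above 0 and 10 below, where the set had 19 above and 13 below, and 0 were called. The difference from the set was not tested. Over all 44 regions with a RefSeq histone start, the median was -0.03 and 0 were called.

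The genes that make, process and place these histones were examined through 4 lists, and 0 of their promoter regions passed the adjusted threshold. Of 23 histone expression factors, all had promoter regions (24 regions), with a median log2 fold change of -0.16 and 1 unadjusted p under 0.05. Npat, the coactivator of the clusters, had 80.3, 70.1 and 71.9 CPM at E14.5 and 66.9, 47.1 and 78.1 CPM at P0, which overlapped (log2 fold change -0.21, SE 0.22, n = 3 per stage, edgeR adjusted p = 0.672). Slbp, which binds the stem-loop of the messages, had a log2 fold change of -0.17 (SE 0.20, n = 3 per stage, edgeR adjusted p = 0.709). Both are named for their roles, after their values were seen. The 18 histone chaperones, which carry new histones to DNA, had 19 regions with a median of -0.07. The replication-independent histones, which are made outside S phase too, had regions for 9 of 12 genes, with a median of -0.19. The replication machinery had regions for 28 of 30 genes, with a median of -0.23 and 3 unadjusted p-values under 0.05.

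The stages did not overlap in 9 of these 82 regions (11.0%), all 9 lower at P0, where 12.1% of all promoter regions were lower without overlap. An unadjusted p under 0.05 was found for 5 of the 82 (6.1%), also below the 8.73% of all promoter regions. The 9 were those of E2f1 and Pou2f1 among the expression factors, Nap1l4 among the chaperones, H2afx among the replication-independent histones, and Mcm7, Orc6, Rfc3, Rpa1 and Rpa2 in the replication machinery, named after their values were seen. Pou2f1, the factor that binds the octamer, had 88.5, 68.4 and 78.7 CPM at E14.5 and 52.2, 48.3 and 61.0 CPM at P0. Its log2 fold change was -0.54 (SE 0.20, n = 3 per stage), and its edgeR adjusted p was 0.147. Whether the partner lists differ from the histone set was not tested.

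In the authors' deposited table, all 32 regions were classed as stable between the stages. The authors' deposited table gave another class to 5.34% of all regions and 1.61% of promoter regions, so a count of 0 in 32 is near the promoter background. The log2 fold changes in the authors' deposited table ran from -0.30 to 0.49 with a median of 0.15, 23 of them above 0, and the smallest adjusted p was 0.268.

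Marker genes were checked for the labelled cell type. Of them, 8 of 10 nephron progenitor genes had a promoter region, with summed levels of 247 to 261 CPM at E14.5 and 217 to 284 CPM at P0, while Meox1 and Pax2 had no region. Promoter regions were also present for 5 of 6 ureteric bud genes (137 to 164 and 115 to 146 CPM), 3 of 6 genes of the differentiating nephron (129 to 144 and 129 to 172 CPM), 2 of 6 stromal genes (57.2 to 69.4 and 51.0 to 81.8 CPM), 1 of 6 endothelial genes (19.8 to 29.6 and 22.7 to 31.2 CPM) and 0 of 6 blood and immune genes. Counting regions of any kind, 4 of 6 stromal, 3 of 6 endothelial and 1 of 6 blood and immune genes had a region, and the other lists were unchanged. None of these lists had a called promoter region with edgeR, and the ranges of the 2 stages overlapped in each. The part of other cell types in the histone values was not tested.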

How the data were processed

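ATAC-seq libraries of mouse nephron progenitors, 3 at E14.5 and 3 at P0, were grouped and numbered by their source names, and every sample column was matched (0 left over). Whole-number counts per region and library were deposited in 1 table, per the file headers, and the build was mm10 per the submitters' processing notes. The aligner, peak caller, counting rule, duplicate removal and any Tn5 shift are not given in the sources used here. The authors' own log2 fold changes, score and p-values came in the same deposited table and were used only where named.

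Of 45489 rows, 1966 repeated a region with identical counts and were dropped. Promoter identifiers were named through 28296 identifier and name pairs of the table, and 1592 promoter regions had no name. Partner and marker genes were also found through RefSeq starts (GRCm38.p6) inside regions.

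Counts were tested with edgeR 4.0.16 (R 4.3.3) over all 43523 regions, with TMM scaling, filterByExpr (0 regions removed), the quasi-likelihood test, no term but stage, and Benjamini-Hochberg adjustment at 0.05. DESeq2 1.42.0 and limma-voom (limma 3.58.1) were alternatives, along with other scalings, filters, thresholds, memberships, a replicate block and leaving out each library. CPM used TMM-scaled library sizes, and log2 CPM a prior count of 1. The fit was tested on simulated data. Counts in regions ran from 6492996 to 12292629 per library, and 0 members had under 10 counts in a library. Within a stage, library pairs differed beyond sampling noise (chi-square per degree of freedom 5.33 to 17.7). Python 3.11.15 with pandas 2.3.3, numpy 2.4.6 and matplotlib 3.10.9 was used for summaries and figures.

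Members with values were those past the threshold, the highest in each cluster, every member outside Hist1 and, per histone type, the largest positive and negative log2 fold change. Partner regions past the threshold would also have been named. The members, the lists of histone expression factors, chaperones, replication-independent histones and replication machinery, and the cell type markers were chosen with earlier results of these data known.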

Additional observations from a re-analysis of the deposited data

How the results depend on the processing

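Under every alternative run, 0 of the 32 histone regions passed the threshold in either direction, at thresholds of 0.1 and 0.01 too. The smallest adjusted p of a member under any alternative was 0.146, without P0 replicate 2. The set's median log2 fold change was 0.07 with total-count scaling, 0.01 with DESeq2 size factors, -0.01 with limma-voom and 0.05 with all rows as deposited. Scaling on promoter regions moved the median of all regions to 0.12 and that of the set to 0.10, and testing promoter regions alone gave 0.10. Leaving out 1 library at a time gave medians of -0.16 to 0.24 for the set, -0.16 to 0.25 for Hist1, -0.38 to -0.12 for Hist2, -0.19 to 0.03 for Hist3, -0.10 to 0.38 for H1, -0.40 to 0.06 for H2A, -0.16 to 0.25 for H2B, -0.50 to -0.00 for H3 and -0.14 to 0.24 for H4. Only Hist2 and H3, which share the Hist2h3c1 region, kept their sign in all of these. The median of all promoter regions was also below 0 in each of these fits, at -0.21 to -0.03. The log2 ratios of mean summed levels ran from -0.21 to 0.18 for the set, -0.17 to 0.25 for Hist1, -0.36 to -0.14 for Hist2 and -0.21 to -0.00 for Hist3.

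Over the whole table, 2059 regions passed, against 885 with scaling on promoter regions, 3490 at a threshold of 0.1 and 539 at 0.01. With promoter regions tested alone, 36 of 14097 passed, against 120 of the same regions when tested within the whole table. Leaving out 1 library gave 339 to 2987, where 339 came from leaving out E14.5 replicate 3, 474 from P0 replicate 1 and 1099 from E14.5 replicate 1. The cause was not tested, beyond fewer samples and fewer regions in these fits.

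With the replicate block, 0 histone regions and 1834 regions in all passed, and the set's median was -0.02. Deviations of same-numbered libraries correlated at 0.07, -0.14 and 0.08. With 3 libraries per stage, these values cannot tell whether the numbers pair the samples, and the labels do not say. The spread between libraries and their number set the interval widths given in the report along with depth, and their shares were not tested. Testing with no filter, leaving out testis-type genes and taking promoter names from all genes of a promoter changed no member or tested region, so their values equal the main ones by construction.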
